A study of Mus musculus with 14 samples.

Results

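The genes described here are 7 genes of the 2-cell-like program of mouse embryonic stem cells (ESCs): Zscan4c, Zscan4d, Zscan4f, Usp17lc, Usp17le, Zfp352 and Tdpoz3. They were chosen by symbol, each symbol stands in 1 row of the table, and they make up 7 of its 23174 gene rows. The choice was made with their levels in these libraries already known, so their values are given as a description, without a test. PolyA RNA-seq was run on 14 libraries in a study of Zfp281, a zinc finger transcription factor, during the conversion of ESCs into extraembryonic endoderm (XEN) cells, the stem cells of the yolk sac lineage.

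4 ESC lines were followed over 3 stages, with 1 library per line and stage. WT3 is wild type. KO3.34 and KO2.6 are Zfp281 knockout lines, and Rescue3.34 is the KO3.34 line with Zfp281 put back, all of strain 129S1/SVImJ. The cell line field gives KO2.6 another number than its titles, which are used here. WT3 and Rescue3.34 are called Zfp281-present here and the others KO. The ESC stage was grown with leukemia inhibitory factor on gelatin, without feeders. The stage cXENp1, chemically induced XEN passage 1, was taken after 48 h in XEN medium with 10 ng/mL activin A and 0.01 µM all-trans retinoic acid. The stage cXENp3 is passage 3, on gelatin in XEN medium after an earlier passage on iMEF feeders, a layer of fibroblasts. The labels of the cXENp3 libraries carry the same treatment as those of cXENp1: 10 ng/mL activin and 0.01 µM retinoic acid for 48 h. XENB1 (strain 129S1) and XEN5 (strain 129S1/SVImJ) are established wild-type XEN lines with 1 library each. The lines are the replicates, and since a line is 1 culture, the p-values below measure the spread between these lines only.

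Cultured mouse ESCs hold a rare and passing state that resembles the embryo at the 2-cell stage, when the embryonic genome is first switched on. Cells in it express the Zscan4 cluster, which encodes zinc finger and SCAN domain proteins that act in telomere maintenance, together with genes that are otherwise silent after early cleavage. The Usp17l genes, also called Dub genes, encode ubiquitin-removing enzymes, Zfp352 encodes a zinc finger protein, and the Tdpoz genes encode TRAF and BTB domain proteins. The homeobox factor Dux and the chromatin factors Dppa2 and Dppa4 are known activators of the state. Retinoic acid is known to raise the share of Zscan4-positive cells in ESC cultures.

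Promoter sequences are shown first, because members that lie on different chromosomes had a like course over the libraries. RefSeq windows of 300 bases around the gene start (build GRCm38.p6, which is not the build of the expression table) were found for 5 of the 7 genes. The 150 bases before the start are printed below for 4 of them, 5′ to 3′ on the strand of the gene, with each TATAAA (the core of a TATA box) and each TAATCC (the core of a paired-like homeobox site) in capitals. Zscan4c lies on the plus strand (chr7:11005595-11005744), Zscan4d on the minus strand (chr7:11166149-11166298), Usp17lc on the plus strand (chr7:103416546-103416695) and Zfp352 on the plus strand (chr4:90218670-90218819).
Zscan4c: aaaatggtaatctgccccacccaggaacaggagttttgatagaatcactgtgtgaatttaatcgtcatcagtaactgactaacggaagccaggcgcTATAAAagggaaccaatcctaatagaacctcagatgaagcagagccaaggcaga
Zscan4d: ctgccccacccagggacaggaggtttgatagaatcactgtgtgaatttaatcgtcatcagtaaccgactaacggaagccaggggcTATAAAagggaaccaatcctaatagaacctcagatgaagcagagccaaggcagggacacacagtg
Usp17lc: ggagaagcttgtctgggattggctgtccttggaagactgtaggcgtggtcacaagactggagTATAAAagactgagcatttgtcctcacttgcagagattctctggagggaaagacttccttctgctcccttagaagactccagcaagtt
Zfp352: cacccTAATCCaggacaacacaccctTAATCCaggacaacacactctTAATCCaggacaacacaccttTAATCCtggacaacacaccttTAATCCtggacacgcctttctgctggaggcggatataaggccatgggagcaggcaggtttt

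The Zscan4c and Zscan4d windows were 97.6% identical over 287 aligned bases. TATAAA stood on the gene's strand in all 4 Zscan4 windows held by the table (Zscan4b, Zscan4c, Zscan4d and Zscan4f) and in 3 of 4 Usp17l windows (Usp17lb, Usp17lc and Usp17ld). The Zfp352 window and the 3 Tdpoz windows (Tdpoz1, Tdpoz4 and Tdpoz5) did not hold TATAAA. Of all 32851 RefSeq windows of the same length, 8.32% held TATAAA on the gene's strand and 13.6% on either strand. The Zfp352 window held TAATCC 9 times, all on the gene's strand and spaced regularly, and no other of the 32851 windows held it 5 times or more. At least 1 copy of TAATCC on either strand was in 7.06% of windows, and none was in the Zscan4 or Usp17l windows. AGGTCA, the half-site of nuclear receptors such as the retinoic acid receptors, was in all 4 Zscan4 windows and in 16.3% of all windows, both strands counted. The Zscan4 windows are 95.3% to 99.3% identical, so their matches are not separate cases. None of the Usp17l, Zfp352 or Tdpoz windows held AGGTCA. A Dux site, TGATT and AATCA with 1 base between them, was in 11 of all windows (0.0335%) and in none of those of the genes named here. A match is only a match of letters, and it was not tested whether any factor binds there.

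Expression values are FPKM, fragments scaled by transcript length and library size, so levels can be set side by side between genes. In the table's coordinates, counted from 1, with mm9 as the build named by the submitters' processing notes, the Zscan4 members lie within 1 cluster of 6 copies that spans 608 kb of chromosome 7. Zscan4c is locus XLOC_017628 at chr7:11591094-11595896, Zscan4d is XLOC_018640 at chr7:11746992-11751497 and Zscan4f is XLOC_017629 at chr7:11983264-11987667. Usp17lc is XLOC_018234 at chr7:110565210-110567688, and Usp17le is XLOC_019332 at chr7:111916563-111925984. Zfp352 is XLOC_013874 at chr4:89885511-89892378, and Tdpoz3 is XLOC_012822 at chr3:93629942-93631039. Each interval is a whole gene locus with its exons and introns.

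Copies of a family share sequence, so reads can be assigned to the wrong copy. In the longest GENCODE transcripts, Zscan4c and Zscan4f were 99.6% identical, and Zscan4c and Zscan4d 97.5%. Of all 150-base stretches, the read length, 54.0% of those of Zscan4c, 62.3% of Zscan4f and 13.0% of Zscan4d also occurred exactly in another copy. The share was 29.4% for Usp17lc, 0.691% for Usp17le, and 0 for Zfp352 and Tdpoz3. The single Zscan4 values and Usp17lc are thus uncertain, while Usp17le, Zfp352 and Tdpoz3 are little touched by shared stretches of that length.

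The level of Zfp281 was examined first, as a check of the labels. Its level was 25.1 to 34.0 FPKM in the 3 WT3 libraries, 27.2 to 38.6 in Rescue3.34, 1.29 to 3.96 in KO3.34 and 0 to 0.559 in KO2.6, and it was 10.6 in XENB1 and 12.5 in XEN5. FPKM sums ran from 424406 to 718138 per library and 14972 to 16831 genes were above 0. The 6 pluripotency markers (Pou5f1, Sox2, Nanog, Esrrb, Tdgf1 and Zfp42) summed to 2575 to 3207 FPKM at the ESC stage and 60.7 to 105.7 at cXENp1. At cXENp3 they summed to 2109 to 3626 in the Zfp281-present lines and 91.7 to 414.8 in the KO lines. The 7 XEN markers (Gata4, Gata6, Sox7, Sox17, Pdgfra, Dab2 and Foxa2) summed to 928.3 to 1143 in the KO lines at cXENp3, 1008 to 1305 in the XEN lines, and only 5.08 and 13.3 in WT3 and Rescue3.34 at cXENp3. The Zfp281-present libraries labelled as XEN cells at passage 3 thus held little of the defining XEN markers. These are bulk samples, in which more 2-cell-like cells and more RNA per such cell cannot be told apart.

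All 7 genes were near 0 in ESCs, high at cXENp1, low again at cXENp3 and at or near 0 in the XEN lines. The Zscan4 genes reached the highest levels at cXENp1, Usp17le came next, and Zfp352 and Tdpoz3 stayed at a few FPKM. Within cXENp1 the line order was shared as well, with Rescue3.34 the lowest line for all 7 genes (24.9% of all genes tested) and KO3.34 the highest for 6 of them (20.8% of all). The plot of levels by stage shows these courses.

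**Figure D1:**
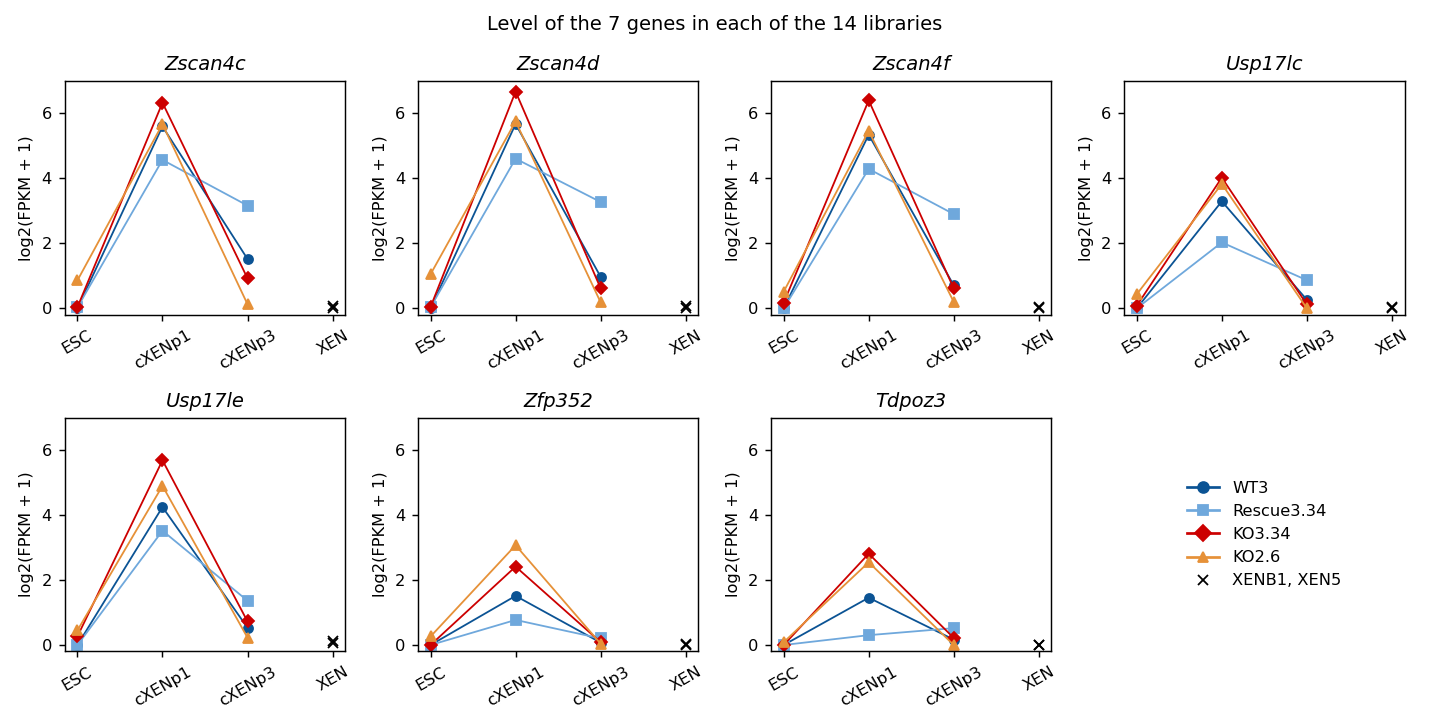
Level of each of the 7 genes, as log2(FPKM + 1), at the ESC, cXENp1 and cXENp3 stages and in the XEN lines; each point is 1 library, lines join the stages of 1 cell line, and crosses are XENB1 and XEN5. Every cell line has its top value at cXENp1 except Rescue3.34 for Tdpoz3, and the light blue Rescue3.34 points lie lowest at cXENp1 and highest at cXENp3 in every panel.

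At cXENp1 Zscan4d had 50.1 FPKM (WT3), 23.4 (Rescue3.34), 101.2 (KO3.34) and 53.1 (KO2.6). The mean was 57.0 ± 32.4 FPKM (SD, n = 4 lines). KO3.34 stood highest, Rescue3.34 lowest, and WT3 and KO2.6 lay close together between them.

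Zscan4c had 47.6 FPKM (WT3), 22.8 (Rescue3.34), 79.5 (KO3.34) and 50.0 (KO2.6) at this stage, a mean of 49.9 ± 23.2 (SD, n = 4). Zscan4f had 39.7, 18.6, 83.7 and 43.0 FPKM in the same order of lines, a mean of 46.3 ± 27.2 (SD, n = 4). All 3 Zscan4 genes had the same order of lines.

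Usp17le had 18.0 FPKM (WT3), 10.5 (Rescue3.34), 50.6 (KO3.34) and 28.9 (KO2.6), a mean of 27.0 ± 17.4 (SD, n = 4). Usp17lc had 8.82, 3.08, 15.3 and 13.2 FPKM in that order, a mean of 10.1 ± 5.39 (SD, n = 4). Here KO2.6 lay above WT3 as well, so that both KO libraries exceeded both Zfp281-present libraries by a wider margin than for Zscan4.

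Zfp352 had 1.85 FPKM (WT3), 0.707 (Rescue3.34), 4.33 (KO3.34) and 7.41 (KO2.6), a mean of 3.58 ± 2.97 (SD, n = 4). It was the only one of the 7 whose highest line was KO2.6. Tdpoz3 had 1.74 FPKM (WT3), 0.234 (Rescue3.34), 6.02 (KO3.34) and 4.85 (KO2.6), a mean of 3.21 ± 2.68 (SD, n = 4). By mean level at cXENp1 the order was Zscan4d, Zscan4c, Zscan4f, Usp17le, Usp17lc, Zfp352 and Tdpoz3. Neighbours in it lay closer together than the larger of their SDs, except Usp17lc and Zfp352. Within each of the 4 lines, Usp17le was below the Zscan4 genes and above Usp17lc.

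In ESCs, all 7 genes were listed at 0 in WT3, and the highest value among them was 0.0231 FPKM in Rescue3.34 and 0.203 in KO3.34. KO2.6 was the highest line for all 7, with 0.815 FPKM for Zscan4c, 1.07 for Zscan4d, 0.427 for Zscan4f, 0.351 for Usp17lc, 0.367 for Usp17le, 0.199 for Zfp352 and 0.0616 for Tdpoz3. Among all genes tested KO2.6 was the highest ESC library for 29.3%. Its ESC library also had the highest sum of the 7 XEN markers, 46.7 FPKM against 0.996 to 5.69 in the other ESC libraries, and the lowest sum of pluripotency markers. The part of these in the result was not tested. The ESC library of KO2.6 was also the only one with the description prefix XH, against JH in the other ESC libraries. Line and prefix thus cannot be told apart there. In the XEN lines the highest value of any of the 7 was 0.0854 FPKM, for Usp17le in XENB1, and XEN5 was listed at 0 for 6 of them.

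The change from ESC to cXENp1 was taken within each line on the scale of log2(FPKM + 1), on which genes that start near 0 show too small a change. The mean difference was 5.40 (SD between libraries 1.18) for Zscan4d, 5.31 (1.07) for Zscan4c and 5.21 (1.04) for Zscan4f. It was 4.41 (0.66) for Usp17le and 3.17 (0.65) for Usp17lc, and 1.88 (0.58) for Zfp352 and 1.76 (0.72) for Tdpoz3. All 7 were higher at cXENp1 in every line, by 0.30 to 4.58 in Rescue3.34 and by 2.41 to 6.63 in KO3.34. For 6 of the 7, all 4 cXENp1 libraries lay above the other 10 libraries, an order that 4.51% of all genes tested had. Tdpoz3 was the exception, since its Rescue3.34 value at cXENp1 was below that line's 0.433 FPKM at cXENp3. The 7 genes were picked from this pattern, so nothing is read from these counts.

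The wider 2-cell-like list holds other copies of the same families and genes known from the 2-cell embryo. It was chosen with earlier results of these data known, so its counts and p-values are a description and not independent support. It has 68 rows in the table, of which 18 were listed at 0 in every library and 35 passed the filter of at least 1 FPKM in at least 2 libraries. Of these 35 rows, 23 would not have passed without the cXENp1 libraries, as was so for 5 of the 7 genes above, and such a row had to differ between the stages. At cXENp1 against ESC, 30 of the 35 rows were higher and none lower at an adjusted p under 0.05 (limma with Benjamini-Hochberg adjustment over all genes), beside 14.7% of the 13191 genes tested that were higher. Among the 12 rows that pass without the cXENp1 libraries 9 were higher, beside 12.5% of all genes that pass so. The 9 include Gm8300, Gm2016, Gm2022, Gm5662 and Gm5039, relatives of the gene Eif1a whose reads may be shared, so they are not separate cases. The median log2 difference was 2.40 over the list and 0.00 over all genes tested. By group, the 3 other Zscan4 copies, the 3 other Usp17l copies, both tested Tdpoz copies and 22 of 27 other 2-cell-embryo genes rose. Of these family copies only Zscan4a passed the filter without the cXENp1 libraries. Of the 23 rows that did not pass without them 21 were higher, beside 62.8% of all such genes, so the filter favoured these counts.

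Zscan4e, listed as a pseudogene in RefSeq, rose from at most 0.356 FPKM in ESCs to 34.2 FPKM (WT3), 13.1 (Rescue3.34), 59.7 (KO3.34) and 33.8 (KO2.6), a log2 difference of 4.82 (SE 0.59, limma adjusted p = 8.1e-04). Gm8994, named Eif4a3l1 in RefSeq and by that name a relative of the RNA helicase gene Eif4a3, rose to 42.8, 17.4, 51.9 and 34.7 FPKM in the same order of lines, by 4.84 (SE 0.56, limma adjusted p = 6.6e-04). Arg2, the mitochondrial arginase, rose to 15.7, 10.4, 45.9 and 22.4 FPKM, by 4.14 (SE 0.43, limma adjusted p = 4.6e-04). All 3 had Rescue3.34 as the lowest line and KO3.34 as the highest. Zscan4e and Arg2 passed the filter only with the cXENp1 libraries, in which they were high, so the filter favoured their calls.

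Usp17lb rose by 4.56 (SE 0.52, limma adjusted p = 6.4e-04) and Usp17la by 3.94 (SE 0.40, limma adjusted p = 3.9e-04). Both of these also passed the filter only with the cXENp1 libraries. Gm5039, a relative of the translation initiation factor gene Eif1a, rose by 4.65 (SE 0.70, limma adjusted p = 0.0021), but the table gives it the same interval as Gm5662, so the split between those genes is uncertain. The 5 rows not called were Eif1a, Pramef8, Pramef12, AA792892 and 1 of the A430089I19Rik loci. The description prefix of the ESC libraries was JH in WT3, Rescue3.34 and KO3.34 and XH in all other libraries, and with this prefix as a term 2 rows were called, with a median of 2.18. In KO2.6, the one line with the same prefix at both stages, 32 of the 35 rows were higher at cXENp1, with a median of 2.49, while 54.6% of all genes tested were higher with a median of 0.10.

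**Figure D2:**
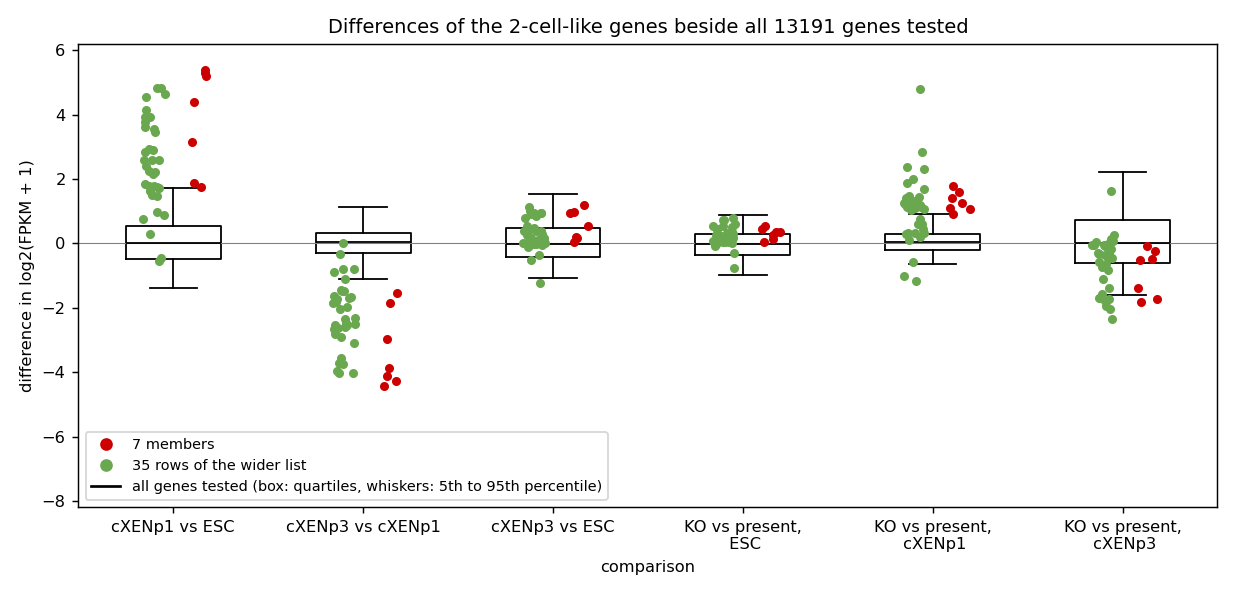
Difference in log2(FPKM + 1) of the 7 genes (red) and the 35 rows of the wider list (green) in 6 comparisons, beside all 13191 genes tested (box: quartiles, whiskers: 5th to 95th percentile). The red points lie at 1.76 to 5.40 in cXENp1 against ESC, at 0.92 to 1.80 in KO against Zfp281-present at cXENp1, and at or below -0.07 in the same contrast at cXENp3.

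Markers of other cell types differed between the stages, not all in the same direction. The 6 germ cell markers summed to 230.5 to 385.1 FPKM at cXENp1 against 16.9 to 81.4 in ESCs, most of it from Stra8, a retinoic acid target, which had 182.8 to 350.1 FPKM. The other 5 germ cell markers summed to 34.9 to 47.6 FPKM at cXENp1 against 12.9 to 68.4 in ESCs, lower at cXENp1 in WT3, Rescue3.34 and KO3.34 and higher in KO2.6. Dppa3, a germ cell and early embryo factor, was lower at cXENp1 in all 4 lines, with 0.0798 to 1.18 FPKM against 1.25 to 12.6. The 6 trophoblast markers summed to 13.7 to 34.9 FPKM at cXENp1 against 4.93 to 15.4 in ESCs, but they did not move together. Gata3 was higher at cXENp1 in every line, with 3.15 to 10.2 FPKM against 0 to 0.136, and so were Cdx2 and Hand1. Eomes was lower in every line, with 0.854 to 3.53 FPKM against 2.05 to 4.43. Krt7 was lower in WT3 only, and Elf5 stayed near 0. The pluripotency markers were low as given above. None of these lists had a marker at 0 in all libraries of the stage. Their part in the levels of the 7 genes was not tested.

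The neighbours of the clusters were examined within 500 kb. The Zscan4 cluster had 11 neighbours in the table, of which 1 passed the filter, and it was not called higher at cXENp1. None of the 64 neighbours of Usp17lc and Usp17ld and 2 of the 41 neighbours of Usp17le, Usp17lb and Usp17la passed it, and those 2 were not called higher either. Of 6 tested neighbours of the Tdpoz cluster on chromosome 3, Tchh and Tdrkh were called higher. Zfp352 had 1 neighbour, which did not pass the filter.

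The KO lines were next set against the Zfp281-present lines at cXENp1. For all 7 genes both KO libraries lay above both Zfp281-present libraries, so the groups did not overlap, an order that 27.2% of all genes tested had. On the log2(FPKM + 1) scale the mean difference was 0.92 (SD between libraries 0.68) for Zscan4c, 1.07 (0.84) for Zscan4d and 1.11 (0.77) for Zscan4f. It was 1.26 (0.42) for Usp17lc, 1.41 (0.42) for Usp17le, 1.60 (0.30) for Zfp352 and 1.80 (0.36) for Tdpoz3. The difference exceeded the spread between libraries by the least for the Zscan4 genes and by the most for Zfp352 and Tdpoz3, which had the lowest levels and passed the filter only with the KO libraries of cXENp1. Without Rescue3.34 the difference was 0.40 for Zscan4c, 0.54 for Zscan4d, 0.59 for Zscan4f and 0.63 for Usp17lc, and for the Zscan4 genes this was below the SD given above. Without KO3.34 it was 0.59, 0.61 and 0.64 for the Zscan4 genes, and without WT3 1.43, 1.61 and 1.64.

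The size of the difference depended on the pair of lines. KO3.34 had 3.49 times the Zscan4c level of Rescue3.34, its own line with Zfp281 put back, 4.33 times the Zscan4d and 4.50 times the Zscan4f level. The ratio was 4.95 for Usp17lc, 4.83 for Usp17le, 6.12 for Zfp352 and 25.8 for Tdpoz3. Against WT3, KO3.34 had 1.67 to 3.45 times the level, with the lowest ratio for Zscan4c and the highest for Tdpoz3.

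KO2.6 against WT3 gave smaller ratios for Zscan4, of 1.05 for Zscan4c, 1.06 for Zscan4d and 1.08 for Zscan4f. They were 1.5 for Usp17lc, 1.60 for Usp17le, 4.0 for Zfp352 and 2.78 for Tdpoz3. WT3 itself had 2.09 to 2.14 times the Zscan4 levels of Rescue3.34, 2.86 times the Usp17lc level and 7.47 times the Tdpoz3 level. For Zscan4, WT3 and KO2.6 thus lay closer together than the Zfp281-present lines did. The XEN markers summed to 370.0 FPKM in KO2.6 at cXENp1 and to 35.7 to 47.9 in the other lines, and the part of this in the result was not tested.

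KO3.34 highest with Rescue3.34 lowest was the order of 6 of the 7 genes and of 24 of the 35 rows of the wider list, against 6.91% of all genes tested. Of the 35 rows, 22 had both KO libraries above both Zfp281-present libraries, against 27.2% of all genes tested. But 11 of the 35 rows passed the filter only with the KO libraries of cXENp1, against 200 of the 13191 genes tested. For such rows the filter favoured both orders, so nothing is read from these counts. The Zscan4 copies summed to 205.3 FPKM (WT3), 89.5 (Rescue3.34), 372.8 (KO3.34) and 214.4 (KO2.6). Since FPKM is scaled by each copy's length, a sum also depends on how reads that fit several copies were divided. The 5 Usp17l copies summed to 63.5, 33.7, 172.6 and 89.2 FPKM. The Eif1a relatives Gm8300, Gm2016, Gm2022, Gm5662 and Gm5039, grouped after their values were seen, summed to 103.7, 40.9, 127.3 and 83.7 FPKM, and there WT3 exceeded KO2.6. The plot of single genes at cXENp1 shows the spread of the 4 lines.

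**Figure D3:**
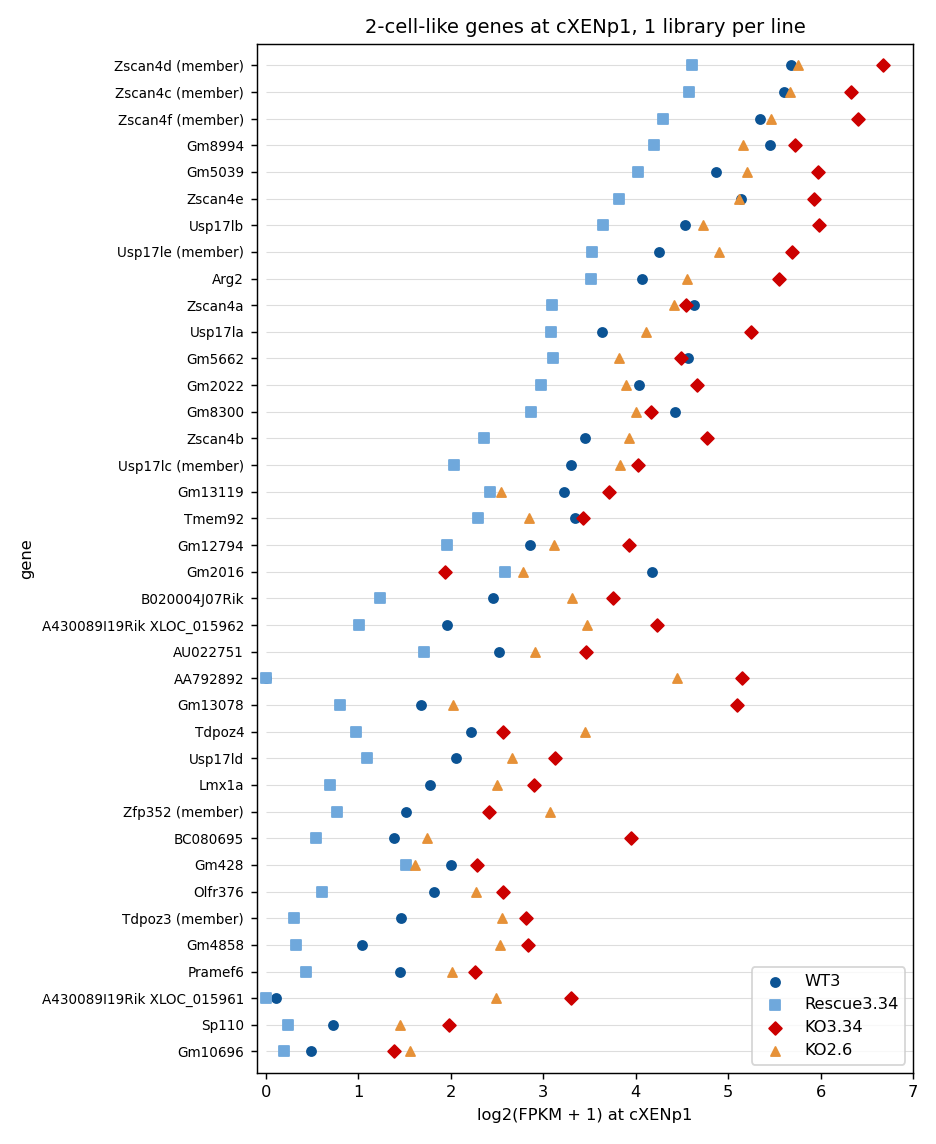
Level at cXENp1, as log2(FPKM + 1), of the 7 genes (named member) and of 31 rows of the wider list, sorted by their mean, with 1 point per cell line; Eif1a, Eif4e3, Pramef8 and Pramef12, which are at 1 FPKM or more in all ESC libraries, are not drawn. Light blue squares (Rescue3.34) lie leftmost in most rows, red diamonds (KO3.34) rightmost, and AA792892 is at 0 in both Zfp281-present lines.

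Of the 35 rows, 5 were higher in KO at cXENp1 at an adjusted p under 0.05 and none was lower (limma), beside 0.364% of all genes tested that were higher. An unadjusted p under 0.05 was reached by 20 of the 35 rows and by 11.3% of all genes. Of the 5 called rows, 4 passed the filter only with the KO libraries of cXENp1, the group in which they were high, so the filter favoured their calls. Of the 24 rows that pass without those libraries 1 was called, the A430089I19Rik locus XLOC_015962, beside 0.246% of all genes that pass so and were higher. The median was 1.15 over the list and 0.04 over all genes. By group they were 4 of 27 of the 2-cell-embryo rows and 1 of 2 Tdpoz copies, and none of the Zscan4 or Usp17l copies, whose differences ran from 0.62 to 1.44 and from 1.27 to 1.32. The comparison has 2 lines against 2, and each call but that of AA792892 was lost when either Zfp281-present line was left out.

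AA792892 (XLOC_015316, chr5:94806365-94813359) had 34.5 FPKM (KO3.34) and 20.7 (KO2.6) in the knockouts and was listed at 0 in both Zfp281-present lines, a difference of 4.80 on the log2(FPKM + 1) scale (SE 0.28, limma adjusted p = 4.7e-05), whose size depends on the pseudocount since one group is at 0. It passed the filter only with the KO libraries of cXENp1, so the filter favoured its call, and without either KO line it did not pass. Since both Zfp281-present lines were at 0, leaving 1 of them out is no check of this difference. A430089I19Rik, named Pramel39 in RefSeq and so of the Prame-like family, has 3 loci in the table, so its reads could be split. Its locus XLOC_015961 (chr5:94731544-94735821) had 0.080 FPKM (WT3), 0 (Rescue3.34), 8.82 (KO3.34) and 4.62 (KO2.6), a difference of 2.84 (SE 0.26, limma adjusted p = 0.0015). Its locus XLOC_015962 (chr5:95380099-95384376) had 2.87, 1.00, 17.7 and 10.1 FPKM, a difference of 2.37 (SE 0.34, limma adjusted p = 0.018).

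Gm4858, named Tdpoz8 in RefSeq and so a relative of Tdpoz3, had 1.06 FPKM (WT3), 0.250 (Rescue3.34), 6.11 (KO3.34) and 4.79 (KO2.6), a difference of 2.00 (SE 0.26, limma adjusted p = 0.014). Gm10696 had 0.399, 0.143, 1.61 and 1.95 FPKM, a difference of 1.13 (SE 0.20, limma adjusted p = 0.041). In both, the KO libraries were above the Zfp281-present ones. For Gm4858 the order of the lines was that of Tdpoz3.

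In ESCs, both KO libraries were above both Zfp281-present libraries for 5 of the 7 genes, against 25.3% of all genes tested, with values that were all at or under 1.07 FPKM. No row of the wider list passed the test there, 1 of 35 had an unadjusted p under 0.05 (limma), while 1.97% of all genes tested passed and 20.9% had an unadjusted p under 0.05. The differences of the 7 genes at this stage, 0.04 to 0.53, rested mainly on KO2.6 and were smaller than the SD between libraries for each gene. KO2.6 was the only ESC library with the prefix XH, so line and prefix cannot be told apart here.

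At cXENp3 the levels were low again in most lines. Zscan4d had 0.961 FPKM (WT3), 8.68 (Rescue3.34), 0.533 (KO3.34) and 0.137 (KO2.6). Zscan4c had 1.87, 7.97, 0.897 and 0.0909 FPKM in that order, and Zscan4f 0.633, 6.47, 0.530 and 0.146. Rescue3.34 stood far above the other lines for all 3, KO2.6 was the lowest, and the KO libraries lay below the Zfp281-present ones.

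Usp17le had 0.446 FPKM (WT3), 1.57 (Rescue3.34), 0.654 (KO3.34) and 0.170 (KO2.6), and Usp17lc had 0.199, 0.821, 0.0865 and 0. Zfp352 had 0.0524, 0.150, 0.0627 and 0.0282 FPKM, and Tdpoz3 had 0.123, 0.433, 0.163 and 0. Rescue3.34 was the highest line for all 7 genes at cXENp3, against 13.0% of all genes tested, and for 25 of the 35 rows of the wider list. For Usp17le, Zfp352 and Tdpoz3, KO3.34 lay above WT3, so the groups overlapped.

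The share of the cXENp1 level that was left at cXENp3 separates the lines. In Rescue3.34 it was 35% for Zscan4c, 37.1% for Zscan4d, 34.8% for Zscan4f, 26.6% for Usp17lc, 15.0% for Usp17le, 21.3% for Zfp352 and 185.6% for Tdpoz3. In the other 3 lines it was at most 7.03%, that value being Tdpoz3 in WT3. Summed over copies, Rescue3.34 kept 41.2% of its Zscan4, 18.3% of its Usp17l, 55.4% of its Tdpoz and 110.1% of its Eif1a-like level, while the other lines kept 0.228% to 6.44%.

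**Figure D4:**
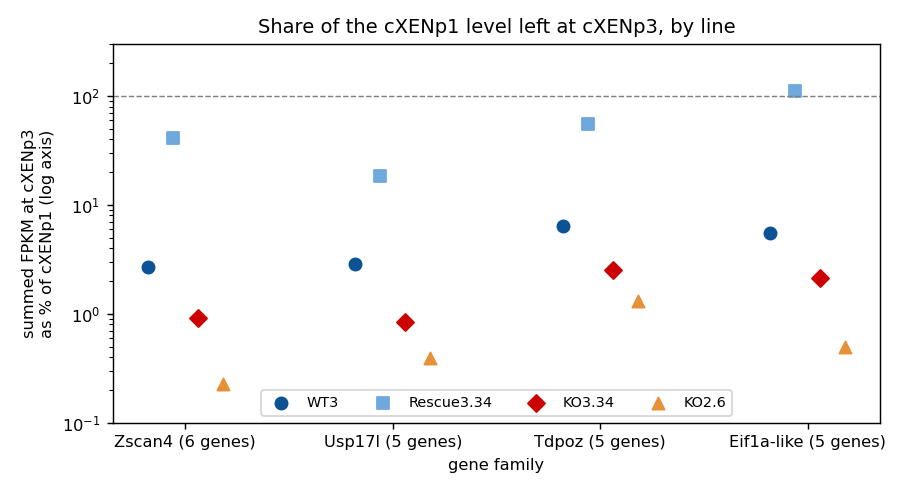
Summed FPKM of 4 gene families at cXENp3 as a percent of the sum at cXENp1 in the same cell line, on a log axis, with 1 point per line; the dashed line marks 100%. The Rescue3.34 squares lie at 18.3% to 110.1%, above all other lines in each family.

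The Rescue3.34 library at cXENp3 also stood apart in the 8 feeder fibroblast markers, which summed to 1572 FPKM against 268.6 in WT3 and 566.5 and 598.4 in the KO lines. Its Col1a1 level was 509.0 FPKM against 17.5 in WT3. The sum of these markers is not particular to feeders. It was 300.1 FPKM in WT3 ESCs, grown without feeders, of which Fn1 gave 283.3. In WT3 at cXENp3 Fn1 gave 235.7 FPKM. The sum was 884.3 FPKM in XENB1 and 687.3 in XEN5. At cXENp3 the pluripotency markers of Rescue3.34 were also lower than those of WT3. They summed to 2109 FPKM in Rescue3.34 against 3626 in WT3. The part of these marker levels in the 2-cell-like levels was not tested.

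The makeup of the Zscan4 sum was alike over the lines at cXENp1. Zscan4d gave 24.4% to 27.2% of it, Zscan4c 21.3% to 25.4% and Zscan4f 19.3% to 22.4%. Zscan4a, a transcribed pseudogene in RefSeq, gave 6.0% to 11.6% at cXENp1 and 19.6% in Rescue3.34 at cXENp3. Within the Usp17l sum, Usp17lb gave 28.6% to 36.1% and Usp17le 28.4% to 32.4%. These shares carry the uncertainty of reads that fit several copies.

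On the log2(FPKM + 1) scale the difference from cXENp1 to cXENp3 was -4.42 (SD between libraries 1.18) for Zscan4d, -4.11 (1.07) for Zscan4c, -4.27 (1.04) for Zscan4f, -3.88 (0.66) for Usp17le and -2.98 (0.65) for Usp17lc. It was -1.84 (0.58) for Zfp352 and -1.55 (0.72) for Tdpoz3. Of the wider list, 23 of 35 rows fell at an adjusted p under 0.05 (limma) and none rose, beside 4.98% of all genes tested that fell, with a median of -2.32 against 0.04 over all genes. The 23 rows that passed the filter only with the cXENp1 libraries, 17 of them called, had to be lower at another stage. Of the 12 rows that pass without them 6 fell, beside 3.54% of all genes that pass so. The count of 23 called was 5 without KO3.34, and 15 without WT3 and without KO2.6.

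Zscan4e dropped by 4.04 on the log2 scale (SE 0.59, limma adjusted p = 0.0046), to 5.14 FPKM in Rescue3.34 and at most 0.599 elsewhere at cXENp3. Usp17lb had the next largest difference, -4.01 (SE 0.52, limma adjusted p = 0.0029). Arg2 differed by -3.75 (SE 0.43, limma adjusted p = 0.0017) and had 1.92 FPKM left in Rescue3.34. The other rows named by size were Gm8994 with -3.98, Gm5039 with -3.71 and Usp17la with -3.56, with limma adjusted p of 0.0041, 0.014 and 0.0013. Zscan4e, Usp17lb, Arg2 and Usp17la passed the filter only with the cXENp1 libraries, so the filter favoured their calls.

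Compared with ESCs, no row of the wider list passed the test at cXENp3 in either direction, and 2 of 35 had an unadjusted p under 0.05 (limma), while 9.35% of all genes tested passed and 35.0% had an unadjusted p under 0.05. The 7 genes differed by 0.04 (Zfp352) to 1.2 (Zscan4c) in this comparison. For 6 of the 7, all but Zscan4c, the difference was below the SD between libraries. Without Rescue3.34 it went from 1.20 to 0.56 for Zscan4c, from 0.98 to 0.23 for Zscan4d and from 0.93 to 0.28 for Zscan4f, all below the SD. Without KO2.6 it was 1.85, 1.60 and 1.35 for these genes. These comparisons of stages share their libraries.

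Between KO and Zfp281-present lines at cXENp3, the sign of the mean difference was the opposite of that at cXENp1. The differences were -1.82 (SD 0.68) for Zscan4c, -1.72 (0.84) for Zscan4d, -1.40 (0.77) for Zscan4f, -0.50 (0.42) for Usp17lc and -0.47 (0.42) for Usp17le. They were -0.07 (0.30) for Zfp352 and -0.23 (0.36) for Tdpoz3, within the spread between libraries. Without Rescue3.34 they shrank to -0.99 for Zscan4c, -0.57 for Zscan4d, -0.30 for Zscan4f, -0.20 for Usp17lc and -0.06 for Usp17le, all but that of Zscan4c below the SD. Without WT3 they were -2.64, -2.87, -2.50, -0.81 and -0.89 in that order. Both KO libraries were below both Zfp281-present libraries for the 3 Zscan4 genes and Usp17lc, 4 of 7, against 35.7% of all genes tested.

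Of the wider list, 4 rows were lower and 1 was higher in KO at cXENp3 (limma adjusted p under 0.05), beside 41.9% of all genes tested that were called in either direction, and the median was -0.33. Gm2022, another Eif1a relative, had 1.28 FPKM (WT3), 6.49 (Rescue3.34), 0.0475 (KO3.34) and 0.0807 (KO2.6), a difference of -1.96 (SE 0.53, limma adjusted p = 0.016). Gm8994 differed by -1.58 (SE 0.53, limma adjusted p = 0.037). Pramef12 differed by -2.36 (SE 0.60, limma adjusted p = 0.011) and Eif1a itself by -0.44 (SE 0.16, limma adjusted p = 0.049), while Pramef8 was higher by 1.63 (SE 0.28, limma adjusted p = 0.0020). Pramef8, Pramef12 and Eif1a were above 1 FPKM in all 4 ESC lines, unlike the 7 genes. Without Rescue3.34, 1 row was called, without WT3 there were 8, and without either KO line there were 2.

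None of the 7 genes passed the filter in the comparison of the XEN lines with ESCs, since neither group reached 1 FPKM in enough libraries. Only 4 rows of the wider list were tested there. Eif1a (-0.83, SE 0.26, limma adjusted p = 0.034) and Pramef12 (-3.29, SE 0.60, limma adjusted p = 0.0038) were lower in the XEN lines, beside 19.7% of 12372 genes tested that were lower.

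Known regulators of the 2-cell-like state were taken one by one, 33 in the table of which 31 passed the filter. Dux, the activator of the state, was below the filter. It had 0.39 FPKM (WT3), 0.22 (Rescue3.34), 1.10 (KO3.34) and 0.79 (KO2.6) at cXENp1, and at most 0.10 in every other library. The order of the lines at cXENp1 was that of Usp17le, and the KO libraries were above the Zfp281-present ones.

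Dppa2, a chromatin-associated activator of the 2-cell program, had 40.0 FPKM (WT3), 64.1 (Rescue3.34), 160.2 (KO3.34) and 126.7 (KO2.6) at cXENp1. The KO and Zfp281-present values did not overlap, but the difference of 1.47 (SE 0.54) did not pass the test (limma adjusted p = 0.34). Nelfa, a subunit of the negative elongation factor that can act as an upstream inducer, had 35.8, 31.7, 69.7 and 71.1 FPKM, a difference of 1.04 (SE 0.25, limma adjusted p = 0.12). Dppa4 had 20.5, 40.1, 41.9 and 33.0 FPKM, and its groups overlapped. Both KO libraries above both Zfp281-present libraries was the order of 27.2% of all genes tested. The repressors Ehmt2, Uhrf1, Pcgf6 and Daxx had it too, so it was not particular to activators.

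**Figure D5:**
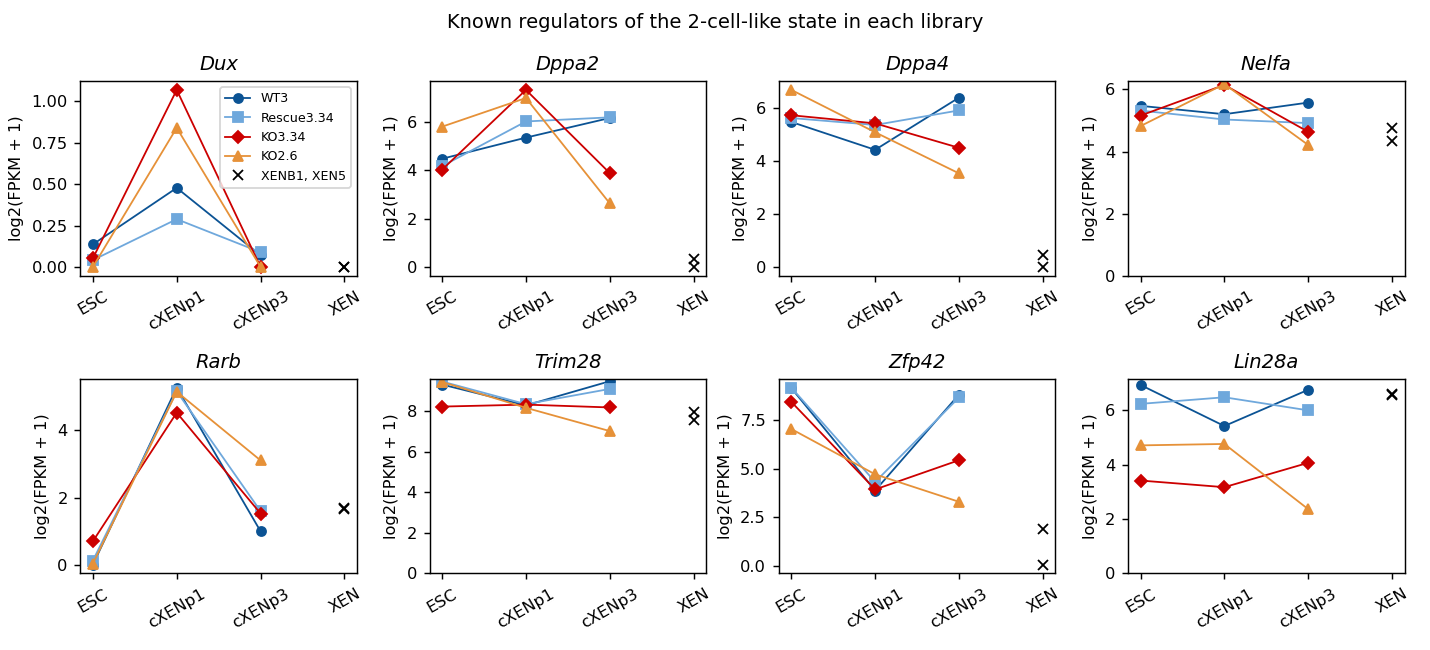
Level of 8 regulators of the 2-cell-like state, as log2(FPKM + 1), by stage and cell line, with 1 point per library and a separate vertical scale in each panel. Dux, Dppa2 and Nelfa are higher in both KO lines (red and orange) than in both Zfp281-present lines (blue) at cXENp1. That order was shared by 27.2% of all genes tested and by repressors that are not drawn. Rarb peaks at cXENp1 in all 4 lines.

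Among the other activators, Rarb, the retinoic acid receptor beta and itself a retinoic acid target, rose at cXENp1 against ESC by 4.76 (SE 0.39, limma adjusted p = 1.7e-04). It had 36.7 FPKM (WT3), 33.9 (Rescue3.34), 21.6 (KO3.34) and 33.6 (KO2.6), so KO3.34, which had the highest levels of 6 of the 7 genes, was its lowest line. Its partner Rxra rose by 0.79 (SE 0.25, limma adjusted p = 0.042), and Tbx3 dropped by 0.92 (SE 0.27, limma adjusted p = 0.033). Of the repressors, Zfp42, also called Rex1, dropped by 4.26 (SE 0.85, limma adjusted p = 0.0070) and Rif1 dropped by 1.00 (SE 0.25, limma adjusted p = 0.016).

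In all, 2 regulators were called higher and 3 lower of 31 at cXENp1 against ESC, beside 28.5% of all genes tested in either direction. From cXENp1 to cXENp3, Rarb was called, lower by -3.19 (SE 0.39, limma adjusted p = 0.0023). No regulator was called between KO and Zfp281-present lines in ESCs or at cXENp1. At cXENp3, 16 of 31 were lower in KO and none was higher, beside the 41.9% of all genes called in either direction. Of the 12991 genes that pass the filter without the KO libraries of cXENp1, 19.3% were lower and 23.2% higher. Among the 16 were Dppa2 (-2.92, SE 0.54, limma adjusted p = 0.0027) and Dppa4 (-2.14, SE 0.42, limma adjusted p = 0.0037). Lin28a (-3.15, SE 0.70, limma adjusted p = 0.0062) and Trim28 (-1.69, SE 0.42, limma adjusted p = 0.011) were others.

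Lin28a, an RNA-binding repressor of the state, had 41.6 FPKM (WT3), 87.5 (Rescue3.34), 7.99 (KO3.34) and 26 (KO2.6) at cXENp1. It was highest in the line with the lowest levels of the 7 genes. It was lowest in KO3.34, which had the highest levels of 6 of them. Its difference between KO and Zfp281-present lines at cXENp1, -1.98 (SE 0.70), did not pass the test (limma adjusted p = 0.31). Both KO libraries were also below both Zfp281-present libraries in ESCs, where the 7 genes were near 0. The same order held at cXENp3, with 106.1 FPKM (WT3), 62.4 (Rescue3.34), 15.7 (KO3.34) and 4.14 (KO2.6). Of all genes tested, 27.9% had both KO libraries below both Zfp281-present libraries in ESCs, 20.6% at cXENp1 and 35.7% at cXENp3. The part of Lin28a in the levels of the 7 genes was not tested. Trim28, the corepressor that silences retroelements, had 288.9 to 327.5 FPKM in the 4 lines at cXENp1.

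The genes whose pattern was most like that of the members were found by the Pearson correlation of log2(FPKM + 1) over the 14 libraries, among 13386 rows. For the mean of the 3 Zscan4 genes, the 10 with the highest r were Zscan4e, Gm8994, Gm5039, Usp17lb, Tmem92, Gm2022, Zscan4a, Gm13119, BB287469 and Usp17le, with r of 0.982 to 0.998. For the mean of the 2 Usp17l genes they were Zscan4b, Gm12794, Usp17la, Usp17lb, Cpb2, Arg2, Akr1cl, Zscan4e, Cacna1s and Tmem92, with r of 0.985 to 0.997. Such values rest on the 4 high cXENp1 libraries, and copies of a family share reads. With Spearman's rho, 6 of the 10 for Zscan4 and 3 of the 10 for Usp17l were the same genes.

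Of these 20 entries 4 were neither members nor on the wider list. BB287469 had 5.81 FPKM (WT3), 2.31 (Rescue3.34), 5.45 (KO3.34) and 3.08 (KO2.6) at cXENp1. Cpb2, the gene of carboxypeptidase B2, had 2.16, 1.00, 3.34 and 3.15 FPKM, and Cacna1s, a calcium channel subunit gene, 3.03, 2.15, 7.39 and 4.77. Akr1cl, an aldo-keto reductase gene, had 0.914, 0.489, 1.34 and 1.06 FPKM. All 4 had their lowest cXENp1 value in Rescue3.34, and in ESCs none exceeded 0.318 FPKM.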

How the data were processed

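PolyA RNA was sequenced in 14 libraries as paired reads of 150 bases, per the labels' protocols. The authors deposited 1 table of FPKM for 23174 gene rows. STAR 2.5.3, Cufflinks 2.1.1 and the build mm9 are named, with no role, in the submitters' processing notes. How reads that fit several copies were handled is not given in the sources used here. The table holds no counts, so depth is unknown, and no interval or detection limit was computed. Starts were shifted by 1 base: with the shift 7509 of 21026 loci had the length of the RefSeq gene, and without it 474.

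Values were analysed as log2(FPKM + 1). Rows with at least 1 FPKM in at least 2 of the fitted libraries were kept, 13191 for the 12 libraries of the course and 12372 for XEN lines against ESCs. limma 3.58.1 in R 4.3.3 (lmFit, eBayes with trend) was fitted on all kept rows, with calls at a Benjamini-Hochberg adjusted p under 0.05. Stage comparisons had line as a block, because the labels name the same line at each stage. KO against Zfp281-present lines within a stage used 6 groups of 2 libraries that share 1 spread, and the SD between libraries is the residual SD of the fit. The fits were tested on simulated data.

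The 7 genes and the lists were chosen with earlier results of these data known, so no p-value is given for the 7. The p-values of the lists describe these libraries and are not independent support. All 7 are named, with Zfp281, the regulators, and in each comparison up to 6 called rows of the wider list with the largest difference; the 10 rows most like the Zscan4 or Usp17l genes are named too. Promoters come from RefSeq (GRCm38.p6) and transcripts from GENCODE, both of another build than the table, so no coordinate was carried over. Alternatives covered the pseudocount (0.1), filters, quantile normalization, the eBayes trend, the block, the description prefix and leaving out each line.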

Additional observations from a re-analysis of the deposited data

Results flagged for a closer look

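In 21 groups of 4 lines (7 genes at 3 stages), 7 had 1 line whose gap to the nearest other line was a larger share of the group's range than Dixon's critical value for groups of 4 allows. The ratio is given as a description, since the levels of these genes were known when they were chosen, and where 3 lines are listed at 0, as for Zfp352 and Tdpoz3 in ESCs, it is at its maximum by construction. Chance flags about 1 in 20 such groups, and the genes are not independent, since copies share reads and the same libraries recur.

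KO2.6, the only ESC library with the description prefix XH, stood above the other ESC libraries for 5 genes. Line and prefix cannot be told apart there. It had 0.815 FPKM for Zscan4c where the next line had 0.0273, 1.07 for Zscan4d where the next had 0.0295, and 0.351 for Usp17lc where the next had 0.0586. It had 0.199 FPKM for Zfp352 and 0.0616 for Tdpoz3, with the other 3 lines listed at 0.

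Rescue3.34 stood above the other cXENp3 libraries for Zscan4d, with 8.68 FPKM where the next line had 0.961, and for Zscan4f, with 6.47 where the next had 0.633.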

How the results depend on the processing

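For the wider list the number of rows called is the value that could change. At cXENp1 against ESC it was 30 of 35. It was 10 of 13 where rows needed 5 FPKM on average, so that fewer were tested, 2 with a term for the description prefix, and 21 to 28 without 1 line. From cXENp1 to cXENp3 it was 23, and 7 of 13 under the mean filter and 5 to 23 without 1 line. For XEN lines against ESCs it was 2, and 5 with any value above 0, which tests 40 rows, and 1 to 2 without 1 line. For KO against Zfp281-present lines at cXENp1 it was 5, with a pseudocount of 0.1 it was 2, under the mean filter 0, and without 1 line 1 to 2. At cXENp3 it was 5, with a pseudocount of 0.1 it was 12, and without 1 line 1 to 8. The causes of these changes were not tested, other than the number of rows. No row was called under any alternative at cXENp3 against ESC or for KO in ESCs. Without line as a block, the counts for cXENp1 against ESC, cXENp3 against cXENp1 and cXENp3 against ESC were 30, 24 and 0, so the replicate block changed no count by over 1.5 times. No paired analysis was possible for KO against Zfp281-present lines because only 1 pair of lines, KO3.34 and Rescue3.34, shares an origin.

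For the 7 genes, 206 of 252 alternative differences moved by less than the SD between libraries and 46 by more. None of the 42 alternatives changed sign at cXENp1 against ESC, nor did any of 42 for KO at cXENp1. In cXENp3 against ESC, Usp17lc became -0.04 and Zfp352 -0.02 without Rescue3.34, and Zfp352 became -0.08 with quantile normalization. In ESCs without KO2.6, KO and Zfp281-present lines differed by 0 for Zfp352 and Tdpoz3. Values near 0 FPKM are limited by an unknown depth.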
